A study of Mus musculus with 4 samples.

Results

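Genes of class I antigen presentation and of the interferon response were followed across the cell classes of the mouse brain after a stroke. The group held 9 of the 46983 genes counted, taken by symbol. B2m, H2-D1, H2-K1 and Psmb8 belong to the class I pathway, Stat2 and Irf9 to interferon signalling, and Ifi27, Ifi27l2a and Bst2 to the genes that interferon induces. Nuclei of 4 libraries had been sequenced, 1 from the sham control group and 1 each from day 1, 3 and 7 of a stroke model, permanent MCAO, in which the middle cerebral artery is closed by coagulation and then severed. Male C57Black/6 mice of 3 months gave 3 forebrain hemispheres per group, which were pooled into 1 library, so no group had replicates and nothing below has a replicate check. The lesion of this model is small and lies in the parietal cortex, while whole forebrain hemispheres were taken. The label of the control names sham surgery, while the surgical notes speak of intact cortex as control tissue, and 359 nuclei of the control library carried markers of striatal projection neurons. The study's own division of nuclei by time point fits the deposited libraries only if the day 3 and day 7 labels trade places. All values here follow the deposited labels, and under the exchange every day 3 value below would be a day 7 value and the reverse.

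Class I molecules carry peptides from inside the cell to its surface, where CD8 T cells read them. Each consists of a heavy chain, here H2-D1 or H2-K1, and the light chain beta-2-microglobulin, the product of B2m. Psmb8 is a catalytic subunit of the immunoproteasome, which cuts proteins into such peptides. STAT2 and IRF9 belong to the transcription factor that type I interferon activates. Bst2, also called tetherin, holds budding enveloped viruses at the cell surface, and Ifi27 and Ifi27l2a encode small hydrophobic proteins. In the healthy brain, class I genes are known to be most active in vessel walls and microglia and low in neurons.

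To show the letters through which such signals are known to act, motifs of interferon and of the class I enhancer were looked up in the RefSeq promoter table of GRCm38.p6, over the 250 bases before the transcription start. Of the 9 genes 7 matched the table. H2-D1 and H2-K1 share a stretch of 30 bases that differs by 1 substitution, T18A, counted from the 5' end of the stretch with the base of H2-D1 first. The first 10 capitals mark the kappa B site of the class I enhancer, and the last mark TTTCACTTC, the interferon consensus sequence of class I promoters.
H2-D1, chr17:35262923-35262952, plus strand: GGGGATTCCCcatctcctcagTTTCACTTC
H2-K1, chr17:34000429-34000458, minus strand: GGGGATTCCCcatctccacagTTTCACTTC
The stretch ends 142 bases before the start of H2-D1 and 82 or 96 bases before that of H2-K1, for which the table has 2 starts. Upstream of B2m and Bst2 the core of the interferon-stimulated response element, GAAA, 2 bases of any kind and GAAA again, was found, set in capitals below. The capitals of Bst2 run together because 2 copies of that core overlap each other by 4 bases and the first of them overlaps a gamma-activated site, TTCNNNGAA.
B2m, chr2:122147437-122147686, plus strand: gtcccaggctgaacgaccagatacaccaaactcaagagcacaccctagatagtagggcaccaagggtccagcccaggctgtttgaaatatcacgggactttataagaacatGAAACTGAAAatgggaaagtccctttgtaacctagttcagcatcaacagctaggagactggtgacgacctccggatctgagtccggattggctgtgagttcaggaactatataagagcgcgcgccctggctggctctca
Bst2, chr8:71537473-71537722, minus strand: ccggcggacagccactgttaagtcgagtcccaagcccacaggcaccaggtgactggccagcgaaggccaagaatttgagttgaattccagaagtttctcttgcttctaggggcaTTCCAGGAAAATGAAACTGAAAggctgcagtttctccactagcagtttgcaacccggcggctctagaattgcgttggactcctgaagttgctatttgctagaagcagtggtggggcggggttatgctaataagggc
The core lay 139 to 130 bases before the start of B2m, 130 to 121 and 124 to 115 before that of Bst2, and 222 to 213 before that of Stat2. Psmb8 held a gamma-activated site 97 to 89 bases before its start, and none of the 4 motifs was in either window of Irf9. All starts here are those of the promoter table. The windows of Psmb8, Irf9 and H2-D1 lie inside the gene spans given below, which come from another annotation. Letters before the starts of those 3 spans were not searched. On either strand the response element core was in 2.98% of 32851 promoters, TTCNNNGAA in 7.02%, TTTCACTTC in 0.402% and the kappa B site in 0.0852%. The motif letters were chosen after these promoters had been seen, and a match describes letters, not a site in use.

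In GRCm38, B2m lies on chr2:122147686-122153083, and Patl2 overlaps it on the other strand. H2-K1 (chr17:33996017-34000347), Psmb8 (chr17:34197721-34201454) and H2-D1 (chr17:35262730-35267499) lie in the major histocompatibility complex, Stat2 on chr10:128270559-128292849 and Irf9 on chr14:55603571-55610030. Ifi27 (chr12:103434211-103440239) and Ifi27l2a (chr12:103442167-103443680) are neighbours, and Bst2 lies on chr8:71534255-71537456. Reads over exons and introns were counted per gene, and the strand used was not stated. Counts of B2m, of Psmb8, which Gm20496 overlaps on the other strand, and of Irf9, which Rnf31 overlaps on the same strand, are uncertain to that extent. H2-D1 and H2-K1 are paralogs with shared sequence, so the split of reads between them is also uncertain.

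Libraries held 23285489 to 42963698 UMIs (unique molecular identifiers, each 1 counted RNA molecule). From them 1018 to 3067 nuclei were kept per library, with a median of 5384 to 10933 UMIs, deepest at day 1, and 9 nucleus barcodes occurred in more than 1 library. Nuclei were clustered without the 9 genes and named by markers, hence microglia-like and so on. Values set out 4 in a row are those of sham control, day 1, day 3 and day 7, in this order. The microglia-like class held 86, 44, 187 and 94 nuclei and the endothelial cell-like class 40, 6, 73 and 21. Neurons numbered 674 to 1898. A level is the UMIs of a gene per 1000000 UMIs of the class (CPM), and a ratio divides it by the level in sham control. Intervals are exact 95% intervals for counting error only, and UMIs of 1 nucleus are not independent of each other. Genes past 2-fold were counted among those with at least 10 UMIs in the 2 sums compared. A gene low in sham control thus entered a count only where it was high on the later day, and the reverse. Droplets with at most 100 UMIs, which hold no nucleus, gave the level in free RNA, in which fewer cells of a type and less RNA per cell cannot be told apart.

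Endothelial cell-like nuclei carried the highest levels of B2m, H2-D1 and H2-K1 of all named classes in each library. B2m stood at 362, 676, 371 and 578 CPM, with 56, 22, 162 and 75 UMIs. H2-D1 stood at 473, 615, 392 and 632 CPM, and H2-K1 at 311, 369, 238 and 447 CPM. For these 3 genes the interval of the endothelial cell-like class lay above that of each other named class in all 4 libraries, except that of the mural cell-like class, whose 2 to 18 nuclei held at most 2 UMIs of any of them. Psmb8, the immunoproteasome subunit, was at 64.7, 61.5, 39.0 and 61.7 CPM. The day 1 value of Psmb8 rests on 2 UMIs. Bst2, the tetherin gene, was at 117, 61.5, 57.3 and 162 CPM, against at most 0.629 CPM in neurons.

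**Figure D1:**
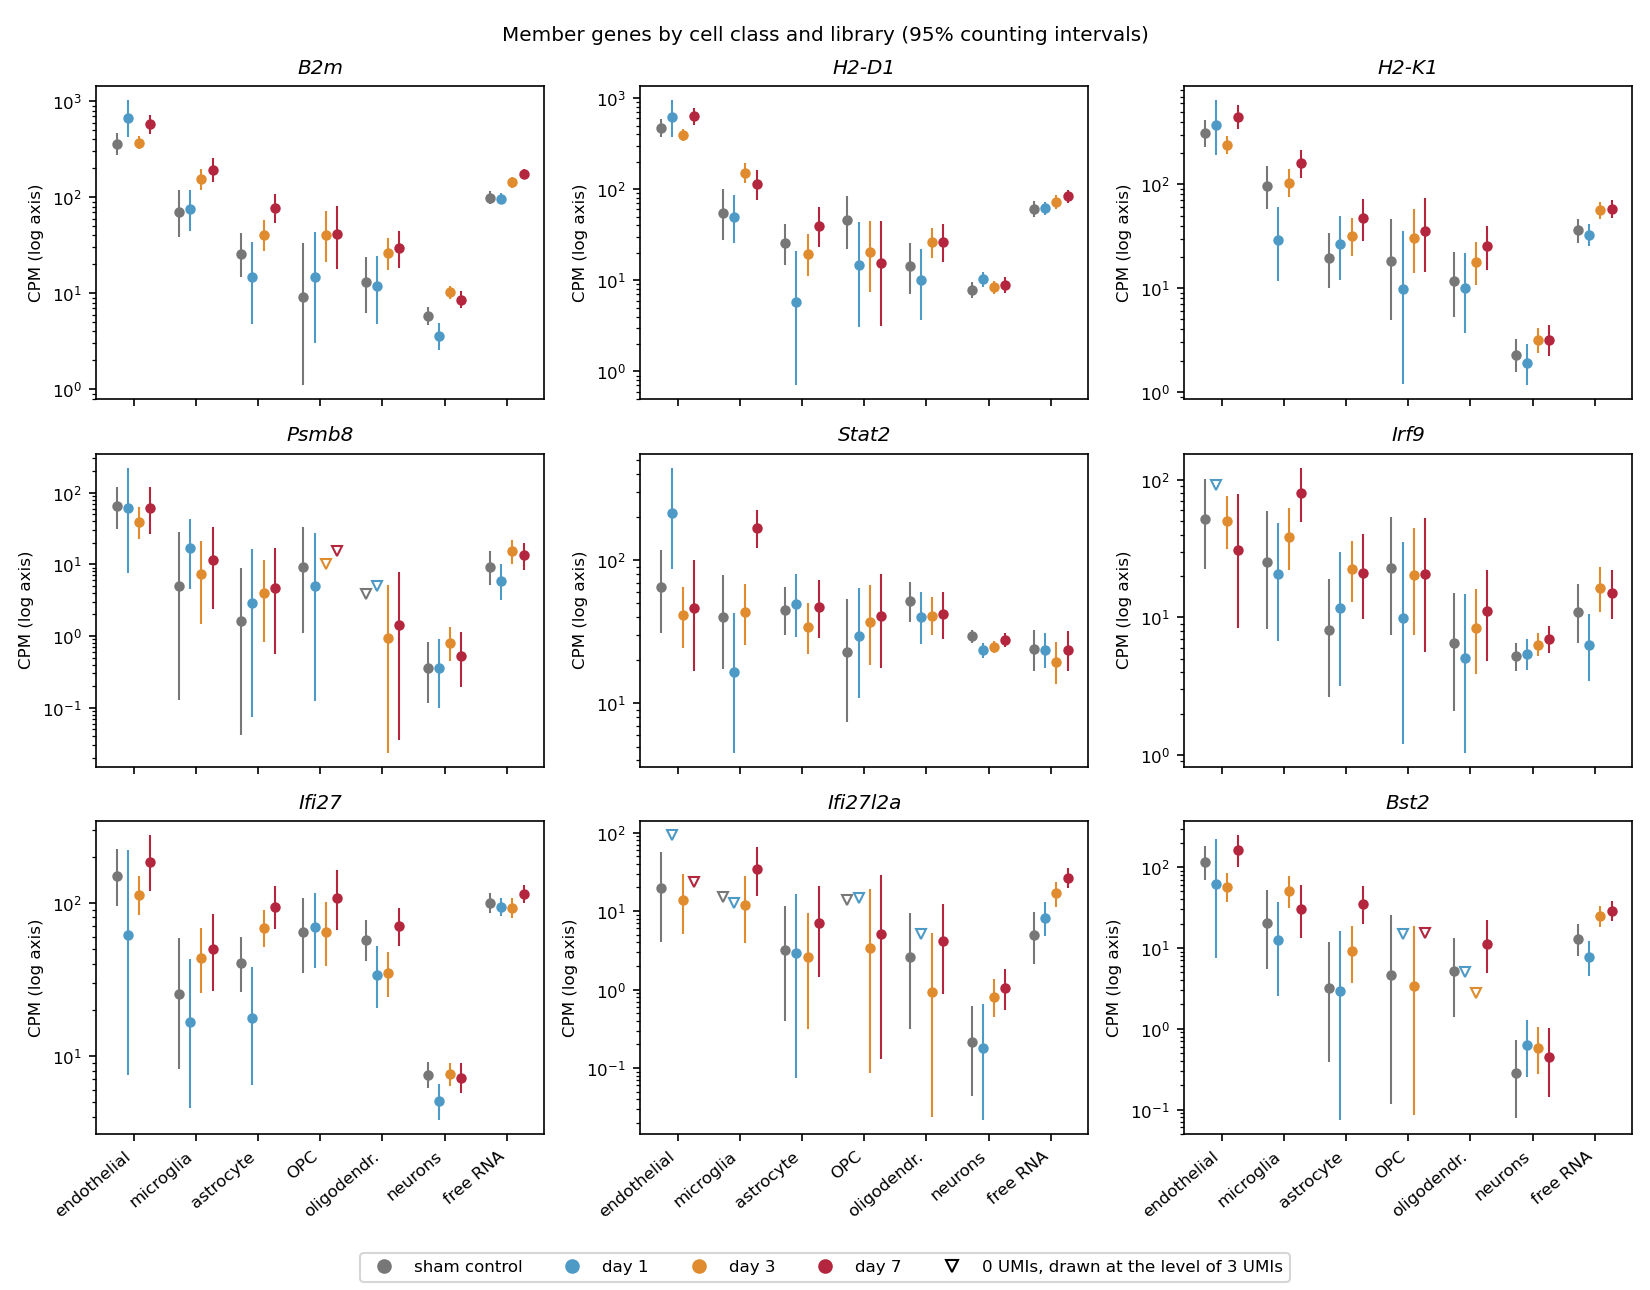
Level of each of the 9 genes (CPM, log axis) in 6 cell classes and in free RNA, for the 4 libraries. Points are summed UMIs over the class total, bars are exact 95% counting intervals, and open triangles mark sums of 0 UMIs at the level of 3 UMIs. B2m, H2-D1 and H2-K1 are highest in endothelial cell-like nuclei, and Stat2 is counted in each of the classes, neurons included.

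The order below the vessels was alike for B2m in sham control and at day 7. In sham control it ran from microglia-like nuclei at 70.7 CPM (38.7 to 119) to astrocyte-like at 25.9 (14.8 to 42.0), oligodendrocyte-like at 13 (6.21 to 23.8) and neurons at 5.85 (4.66 to 7.27). Neighbours in that order had overlapping intervals. At day 7 the values were 194 CPM (145 to 255), 77.6 (53.4 to 109), 29.4 (18.2 to 45.0) and 8.58 (6.96 to 10.47), and no 2 neighbours overlapped. The lower end of both orders is not read as expression, since the levels of oligodendrocyte-like nuclei and neurons in both libraries, and that of astrocyte-like nuclei in sham control, were not above what free RNA would give, as set out further on. Oligodendrocyte precursor-like nuclei, at 41.0 CPM (17.7 to 80.7) at day 7, overlapped both glial neighbours. Vascular leptomeningeal cell-like nuclei held at most 11 UMIs of B2m in any library and ependymal cell-like nuclei at most 4.

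Microglia-like nuclei, the brain's resident macrophages by their markers, showed higher levels of the group from day 3 on. The 9 genes together made up 338, 237, 605 and 841 CPM. The ratio to sham control was 0.702 (0.484 to 1.01) at day 1, 1.79 (1.36 to 2.38) at day 3 and 2.49 (1.88 to 3.32) at day 7, so the intervals of the later days lay above 1 and that of day 1 held it. The day 1 direction depended on the processing. The log2 ratio of -0.51 turned to 0.16 with each nucleus thinned to 1000 UMIs, which also gives each nucleus equal weight. It turned to 0.026 in nuclei of more than 2000 UMIs. Microglia-like nuclei had medians of 1774.5, 3564, 1730 and 2003 UMIs in the 4 libraries in order of time. In nuclei of more than 2000 UMIs the later ratios were larger, 1.35 in place of 0.84 at day 3 and 1.76 in place of 1.31 at day 7 on the log2 scale.

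Of the class I chains of microglia-like nuclei, B2m, the light chain, was at 70.7, 75.0, 154 and 194 CPM, a ratio of 2.18 (1.21 to 4.21) at day 3 and 2.75 (1.50 to 5.37) at day 7. The heavy chain H2-D1 was at 55.5, 49.98, 152 and 114 CPM, with ratios of 2.73 (1.43 to 5.75) at day 3 and 2.06 (1.00 to 4.55) at day 7. H2-K1, the other heavy chain, was at 95.9, 29.2, 104 and 159.9 CPM, a ratio of 0.304 (0.108 to 0.755) at day 1 and 1.67 (0.948 to 3.03) at day 7. The H2-K1 intervals at day 3 and day 7 held a ratio of 1. Psmb8 had 1 to 4 UMIs per library in this class, too few for a comparison.

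Both signalling genes stood apart at day 7 in microglia-like nuclei. Stat2 was at 40.4, 16.7, 43.4 and 168 CPM, with 8, 4, 18 and 44 UMIs, and the day 7 ratio was 4.15 (1.93 to 10.2). Irf9, which binds DNA in the complex with STAT2, was at 25.2, 20.8, 38.5 and 80.0 CPM, with a day 7 ratio of 3.17 (1.16 to 10.7). For both genes the day 1 and day 3 intervals held 1. The induced gene Bst2 was at 20.2, 12.5, 50.6 and 30.5 CPM and Ifi27 at 25.2, 16.7, 43.4 and 49.5 CPM, with intervals that held 1 on each day. Ifi27l2a had 0, 0, 5 and 9 UMIs, at least 2.26-fold higher at day 7 against a floor of 3 UMIs. A count of 0 allows up to 3 UMIs, which is 15.2 CPM in sham control.

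Read against all genes, the count of members past 2-fold in microglia-like nuclei differed by day. At day 1 0 of the 5 members with 10 UMIs were higher and 2, H2-K1 and Stat2, were lower, where 11.3% of all genes were higher and 9.01% lower. The day 1 level of Stat2 was not above what free RNA would give within counting error, so no fall of Stat2 is read from that count. At day 3 3 of 7 were higher (B2m, H2-D1 and Bst2) and 0 lower, beside 11.5% and 6.84% of all genes. At day 7 4 of 7 were higher (B2m, H2-D1, Stat2 and Irf9) and 0 lower, beside 9.73% and 7.41%. The median log2 ratio of the members counted was -0.28, 0.78 and 1.04 over the 3 days, beside 0.012, 0.047 and 0.0075 for all genes. Psmb8 and Ifi27l2a stayed under 10 UMIs on each day, as did Ifi27 and Bst2 at day 1, so these counts describe the members that could be counted and are no support for the rest.

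Other cells could share the 2 microglia-like clusters. The smaller, of 30 nuclei counted before doublets were removed, had oligodendrocyte markers as its next class, and without it, an alternative chosen after the data had been seen, the 9-gene log2 ratio was 0.78 at day 3 and 1.21 at day 7. Of 17 microglial markers all were detected in each library, at a summed 10059.6, 6789, 10444 and 9236 CPM in order of time. The 8 markers of border macrophages summed to 343, 392, 756 and 563 CPM, with Lyve1 at 0 in each library, and the 7 of monocytes to 15.2, 146, 219 and 95.2 CPM, with Ly6c2 at 0 in each library. The 7 neutrophil markers summed to 515, 267, 469.7 and 544 CPM, with 1, 2, 4 and 1 of them detected. Csf3r was detected in each library, S100a9 at day 1, S100a8, Mmp8 and Cxcr2 at day 3, and Ly6g and Retnlg in none. The part of neutrophils in the result was not tested. The 16 endothelial markers summed to 90.9, 75.0, 301 and 64.7 CPM in microglia-like nuclei, highest at day 3, and their part in the day 3 value was not tested. Leaving out the 7, 7, 59 and 18 nuclei that held a UMI of a macrophage or monocyte marker other than Stab1 was an alternative chosen after the data had been seen. Without them the log2 ratio of the 9 genes was 0.50 at day 3, in place of 0.84, and 1.40 at day 7, in place of 1.31. Stat2 at day 7 stood at 2.03 without them and at 2.05 with them.

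Astrocyte-like nuclei had their highest values at day 7. The 9 genes summed to 173, 135, 232 and 374 CPM, a ratio of 1.34 (1.05 to 1.72) at day 3 and 2.16 (1.68 to 2.79) at day 7. B2m was at 25.9, 14.6, 40.7 and 77.6 CPM, and its day 7 ratio of 3.00 (1.60 to 5.83) lay above 1. Free RNA, whose share was estimated as set out further on, would alone give B2m levels of 24.6, 27.4, 26.4 and 38.4 CPM in the class, within the interval in sham control and at day 1 and below it at day 3 and day 7, so the first 2 levels are read as background. Ifi27, an induced gene, was at 40.5, 17.6, 68.3 and 94.1 CPM, with ratios of 1.69 (1.03 to 2.84) at day 3 and 2.33 (1.38 to 4.00) at day 7. Bst2 had 2, 1, 7 and 15 UMIs, a day 7 ratio of 10.9 (2.53 to 98.2). H2-K1 reached 2.42 (1.13 to 5.43) at day 7, and Stat2 was at 45.3, 49.7, 34.1 and 47.0 CPM. H2-D1, at 25.9, 5.85, 19.7 and 39.97 CPM against 15.2, 17.4, 13.4 and 18.3 from free RNA alone, had its interval above that level at day 7 only, and no change from sham control is read from its 2 UMIs at day 1.

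In astrocyte-like nuclei at day 7, 1 nucleus held 27 of the 159 member UMIs of the 69 nuclei, with 8 of the 9 genes present. Without the nucleus with most member UMIs in each of the 2 libraries compared, the log2 ratio was 1.02 in place of 1.11. With all nuclei of the class given equal weight, which also changes the weight of every other nucleus, the log2 ratio at day 7 was 0.60 in place of 1.11, and that of H2-K1 turned to -0.067 from 1.28. Summed microglial markers in the class stood at 165, 266, 399 and 567 CPM in order of time and endothelial markers at 51.8, 29.3, 117 and 279.8 CPM, and their part in the result was not tested. Past 2-fold, 2 of 5 members were lower at day 1 (H2-D1 and Ifi27) and 0 higher, beside 10.7% and 5.59% of all genes. Neither day 1 level was above what free RNA would give, 17.6 CPM for Ifi27 against 26.6, so no change is read from that count. At day 3 1 of 6 was higher (Irf9) and 0 lower, beside 5.21% and 7.04%. At day 7 5 of 7 were higher (B2m, H2-K1, Irf9, Ifi27 and Bst2) and 0 lower, beside 5.64% and 9.45%.

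In oligodendrocyte-like nuclei Ifi27 and Stat2 had the most UMIs of the 9 genes in each library. Their 9-gene sum was 162, 111, 156 and 221 CPM, with ratios of 0.686 (0.501 to 0.931), 0.965 (0.761 to 1.23) and 1.37 (1.07 to 1.74). Summed microglial markers in the class stood at 122, 237, 282 and 221 CPM, and their part in the day 7 value was not tested. Ifi27 was at 57.0, 33.6, 34.6 and 70.1 CPM, lower at day 3 with a ratio of 0.607 (0.381 to 0.962). B2m was at 13, 11.8, 26.2 and 29.4 CPM, a day 7 ratio of 2.27 (1.02 to 5.40), and Stat2 at 51.8, 40.4, 41.2 and 42.0 CPM. Past 2-fold, 0 of 5 members were higher or lower at day 1, where 5.7% of all genes were higher and 6.51% lower. At day 3 B2m alone of 6 was higher, beside 7.58% higher and 3.43% lower. At day 7 3 of 7 were higher (B2m, H2-K1 and Bst2), beside 4.36% and 6.69%, and 0 lower. B2m is among those counted at day 3 and day 7, although its level was not above what free RNA would give in any library, so no change of B2m is read from these counts.

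Ifi27 was also the member with most UMIs in 2 small classes. Oligodendrocyte precursor-like nuclei had it at 63.9, 68.9, 64.4 and 108 CPM, and ependymal cell-like nuclei, which line the ventricles, at 71.7, 38.6, 95 and 111 CPM. Each interval of the ratio to sham control held 1 in both classes. The 9-gene ratio at day 7 was 1.36 (0.888 to 2.08) in precursors, 1.3 (0.704 to 2.33) in ependymal cell-like nuclei and 1.75 (0.929 to 3.43) in vascular leptomeningeal cell-like nuclei. A cluster that stayed unnamed, led by Aldoc, Ttr, Gfap and mitochondrial genes, had 18, 25, 94 and 29 nuclei. Its 9-gene ratio was 1.88 (1.12 to 3.35) at day 3 and 4.79 (2.85 to 8.54) at day 7, with B2m at 20.6, 25.4, 49.4 and 141 CPM. The share of free RNA was not estimated for this cluster, so how much of these levels is background is not known.

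In endothelial cell-like nuclei, the class with the highest levels, the direction and size of the 9-gene ratio depended on thinning and scaling. Its 16 markers, all detected except Egfl7 at day 1, summed to 19502, 24196, 17552 and 20178 CPM. The 9-gene sum was 1612, 2059.9, 1315 and 2144 CPM, a ratio of 1.28 (0.961 to 1.68) at day 1, 0.816 (0.702 to 0.951) at day 3 and 1.33 (1.12 to 1.58) at day 7. B2m had ratios of 1.87 (1.08 to 3.11) at day 1 and 1.60 (1.11 to 2.30) at day 7. Bst2 was lower at day 3, with a ratio of 0.492 (0.258 to 0.957). Stat2 at day 1 rests on 7 UMIs, a ratio of 3.32 (1.07 to 9.68). The day 1 class held 6 nuclei, and scaling by the median ratio of genes, which there moved all genes by 0.49 log2, turned the 9-gene log2 ratio from 0.35 to -0.14. With each nucleus thinned to 1000 UMIs, the 9-gene log2 ratios of 0.35, -0.29 and 0.41 at day 1, day 3 and day 7 became -0.46, -0.035 and 0.90, the log2 ratio of B2m at day 1 turned from 0.90 to -0.26 and that of Bst2 at day 3 from -1.02 to 1.94. Past 2-fold, 1 of 7 members was higher at day 1 (Stat2) and 1 lower (Ifi27), beside 13.4% and 26.3% of all genes. At day 3 1 of 8 was lower (Bst2) and 0 higher, beside 7.73% and 13.6%, and at day 7 0 of 8 passed in either direction, beside 7.78% higher and 11.3% lower.

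**Figure D2:**
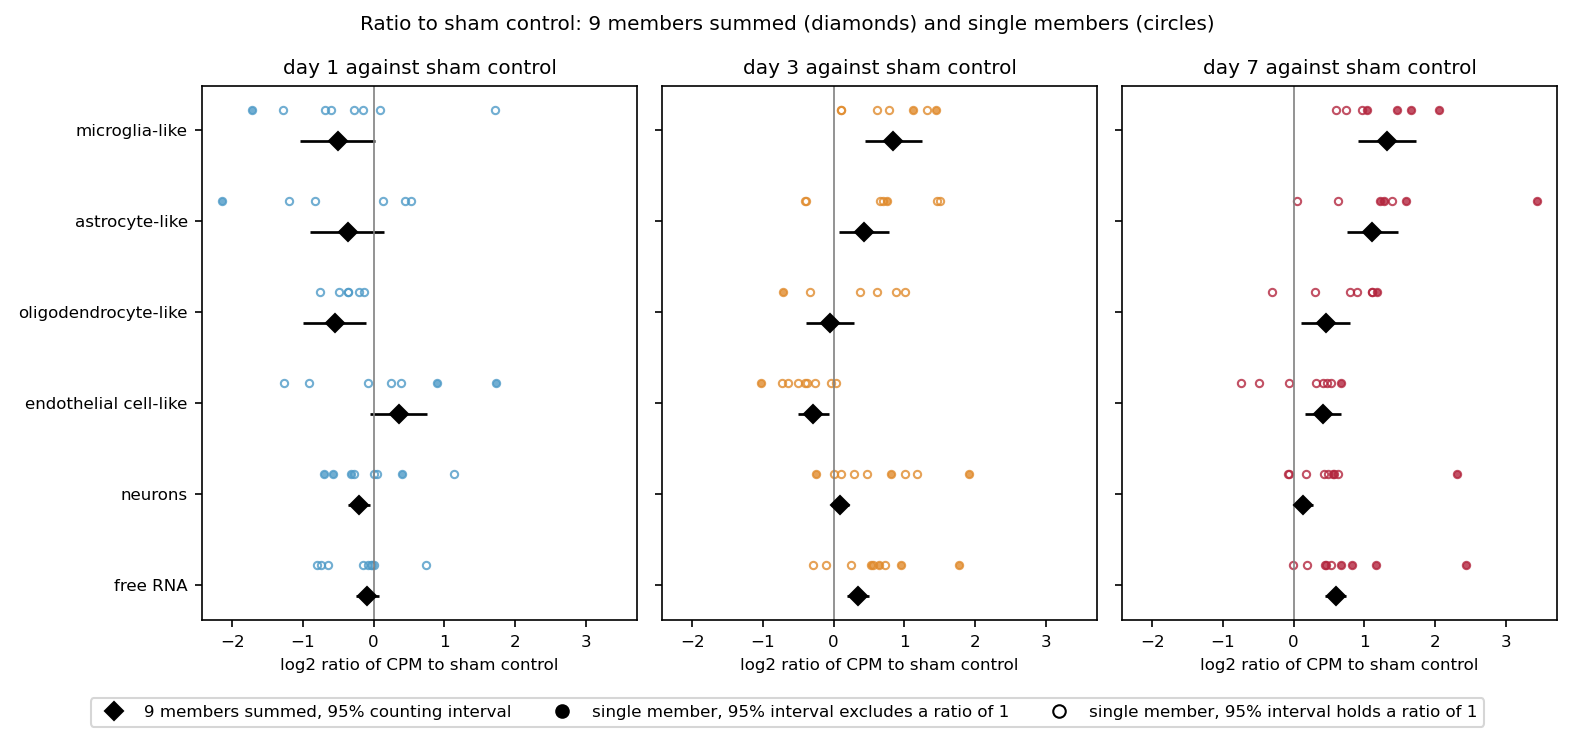
Log2 ratio of CPM to sham control in 5 cell classes and free RNA at day 1, day 3 and day 7. Black diamonds give the 9 genes summed with their 95% counting interval, and circles single genes, filled where the 95% interval excludes a ratio of 1. At day 7 the sums of microglia-like and astrocyte-like nuclei lie farthest to the right, at 1.31 and 1.11.

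Neurons, pooled over glutamatergic, GABAergic, striatal and other types, had lower levels of B2m, H2-D1 and H2-K1 than microglia-like, astrocyte-like and endothelial cell-like nuclei, except for H2-D1 at day 1, which stood at 5.85 CPM with 2 UMIs in astrocyte-like nuclei. B2m was at 5.85, 3.59, 10.3 and 8.58 CPM, H2-D1 at 7.85, 10.3, 8.47 and 8.84 CPM and H2-K1 at 2.28, 1.89, 3.17 and 3.18 CPM. B2m had ratios of 0.614 (0.410 to 0.906), 1.75 (1.34 to 2.30) and 1.47 (1.08 to 1.99), at levels no higher than free RNA would give within counting error, and H2-D1 had a ratio of 1.32 (1.00 to 1.72) at day 1. Ifi27 was at 7.49, 5.03, 7.55 and 7.16 CPM against 4.79, 4.24, 6.10 and 6.27 from free RNA alone, not above it within counting error at day 1 and day 7, so no change is read from its day 1 ratio of 0.671 (0.476 to 0.937). Stat2 made up 49.9%, 46.3%, 39.5% and 43.0% of the member UMIs counted in neurons. Its level was 29.4, 23.6, 24.8 and 27.8 CPM, with ratios of 0.803 (0.685 to 0.940) at day 1 and 0.844 (0.736 to 0.969) at day 3. The 9-gene ratio was 0.865 (0.776 to 0.964) at day 1, 1.06 (0.972 to 1.17) at day 3 and 1.10 (0.990 to 1.21) at day 7. Leaving out Stat2, a choice made after the data had been seen, moved the log2 ratio at day 3 from 0.091 to 0.36 and that at day 7 from 0.13 to 0.32. Subtracting free RNA turned the same values to -0.33 at day 3 and -0.25 at day 7, so the later direction in neurons depended on the processing.

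Single neuron types held few UMIs of the class I genes. Other neurons are no separate type: the class pools clusters with a lead under 0.5 between neuronal classes, among them 2 of 336 and 169 nuclei where glutamatergic markers scored highest and 1 of 188 where GABAergic markers did (nuclei counted before doublets were removed), with clusters led by markers of other neurons. B2m in striatal projection neuron-like nuclei was at 2.58, 2.40, 8.82 and 8.34 CPM, where free RNA alone would give 5.18, 6.30, 12.2 and 14.1. The GABAergic interneuron-like class held 10, 1, 16 and 9 UMIs of B2m, at 8.85, 0.949, 12.4 and 9.20 CPM against 5.03, 3.66, 11.4 and 5.74, and other neurons had it at 6.72, 2.40, 7.41 and 7.17 CPM against 5.18, 4.75, 8.34 and 9.52. In no library did the interval of B2m in these 3 types lie above what free RNA would give, and no change is read from them. In glutamatergic neuron-like nuclei B2m was at 6.71, 5.57, 12.2 and 9.58 CPM against 4.18, 3.37, 8.59 and 8.74, with the interval above it except at day 7, and its day 3 ratio was 1.81 (1.23 to 2.71) while the expected level differed in the same direction. In other neurons Stat2, at 26.3, 14.7, 21.8 and 27.3 CPM against 1.25, 1.16, 1.14 and 1.28, had a day 1 ratio of 0.558 (0.388 to 0.794). H2-D1 in other neurons, at 7.52, 6.90, 10.6 and 13.5 CPM against 3.20, 3.02, 4.23 and 4.54, had a day 7 ratio of 1.79 (1.10 to 2.97). The differences between neuron types were not tested, and other neurons overlap the glutamatergic and GABAergic classes in their markers.

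Free RNA held the group at levels above those of neurons, astrocyte-like and oligodendrocyte-like nuclei. Its 9-gene sum was 358, 337, 456 and 540.1 CPM, with ratios of 0.941 (0.843 to 1.05), 1.27 (1.14 to 1.42) and 1.51 (1.36 to 1.68). B2m in free RNA was at 99.2, 96.9, 143 and 177 CPM, a ratio of 1.44 (1.18 to 1.76) at day 3 and 1.78 (1.47 to 2.17) at day 7. Ifi27l2a, nearly absent from nuclei, was at 4.9, 8.15, 16.8 and 26.5 CPM, ratios of 3.42 (1.54 to 8.61) and 5.42 (2.53 to 13.3) at the later days. Bst2 had ratios of 1.93 (1.13 to 3.41) and 2.24 (1.32 to 3.93), H2-K1 of 1.56 (1.12 to 2.18) and 1.60 (1.15 to 2.24), and H2-D1 of 1.38 (1.06 to 1.79) at day 7. The intervals of Psmb8, Stat2, Irf9 and Ifi27 held 1 on each day. Past 2-fold, 0 of 9 members were higher or lower at day 1, beside 4.84% and 3.48% of all genes. Ifi27l2a was higher at day 3, beside 3.4% higher and 3.85% lower, and Ifi27l2a and Bst2 at day 7, beside 4.54% and 2.96%. Markers of microglia in free RNA also stood higher over time, at 541, 801, 1269.5 and 1353 CPM, and their part in the result was not tested.

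How much of a nucleus's level free RNA could give was estimated from genes of other classes. From 12 neuronal genes the share of free RNA came to 34.4%, 32.2%, 24.3% and 21.0% of UMIs in microglia-like nuclei, 24.8%, 28.2%, 18.5% and 21.7% in astrocyte-like, 16.2%, 15.5%, 19.9% and 13.1% in oligodendrocyte-like and 11.4%, 6.36%, 18.5% and 8.18% in endothelial cell-like nuclei, and from 9 glial genes to 4.80%, 4.5%, 6.60% and 5.49% in neurons. B2m in oligodendrocyte-like nuclei was at 13, 11.8, 26.2 and 29.4 CPM where free RNA alone would give 16.1, 15.0, 28.3 and 23.2, inside the interval in each library. B2m in neurons was at 5.85, 3.59, 10.3 and 8.58 CPM against 4.76, 4.36, 9.42 and 9.69. Subtracting the expected UMIs turned the log2 ratio of B2m in neurons at day 3 from 0.81 to -0.35, and thinning to 1000 UMIs that at day 7 from 0.55 to -0.067. Levels near these are read as background, and no change of B2m in oligodendrocyte-like nuclei and pooled neurons is read from them. Microglia-like nuclei stood above it, with B2m at 70.7, 75.0, 154 and 194 CPM against 34.1, 31.2, 34.7 and 37.0.

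Stat2 was the clearest member in neurons by this measure. It was at 29.4, 23.6, 24.8 and 27.8 CPM where free RNA would give 1.15, 1.06, 1.28 and 1.3. Its level in free RNA, 23.9, 23.5, 19.5 and 23.7 CPM, was close to that in neurons. H2-D1 in neurons, at 7.85, 10.3, 8.47 and 8.84 CPM, stood above an expected 2.94, 2.77, 4.78 and 4.62. Ifi27 in oligodendrocyte-like nuclei, at 57.0, 33.6, 34.6 and 70.1 CPM, stood above 16.2, 14.6, 18.4 and 15.0, whereas in microglia-like nuclei it was at 25.2, 16.7, 43.4 and 49.5 against 34.3, 30.4, 22.5 and 24, inside the interval in sham control and at day 1. With the expected UMIs subtracted, the 9-gene log2 ratio at day 3 went from -0.052 to -0.60 in oligodendrocyte-like nuclei and from 0.091 to -0.33 in neurons. In microglia-like nuclei it moved from 1.31 to 1.49 at day 7.

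**Figure D3:**
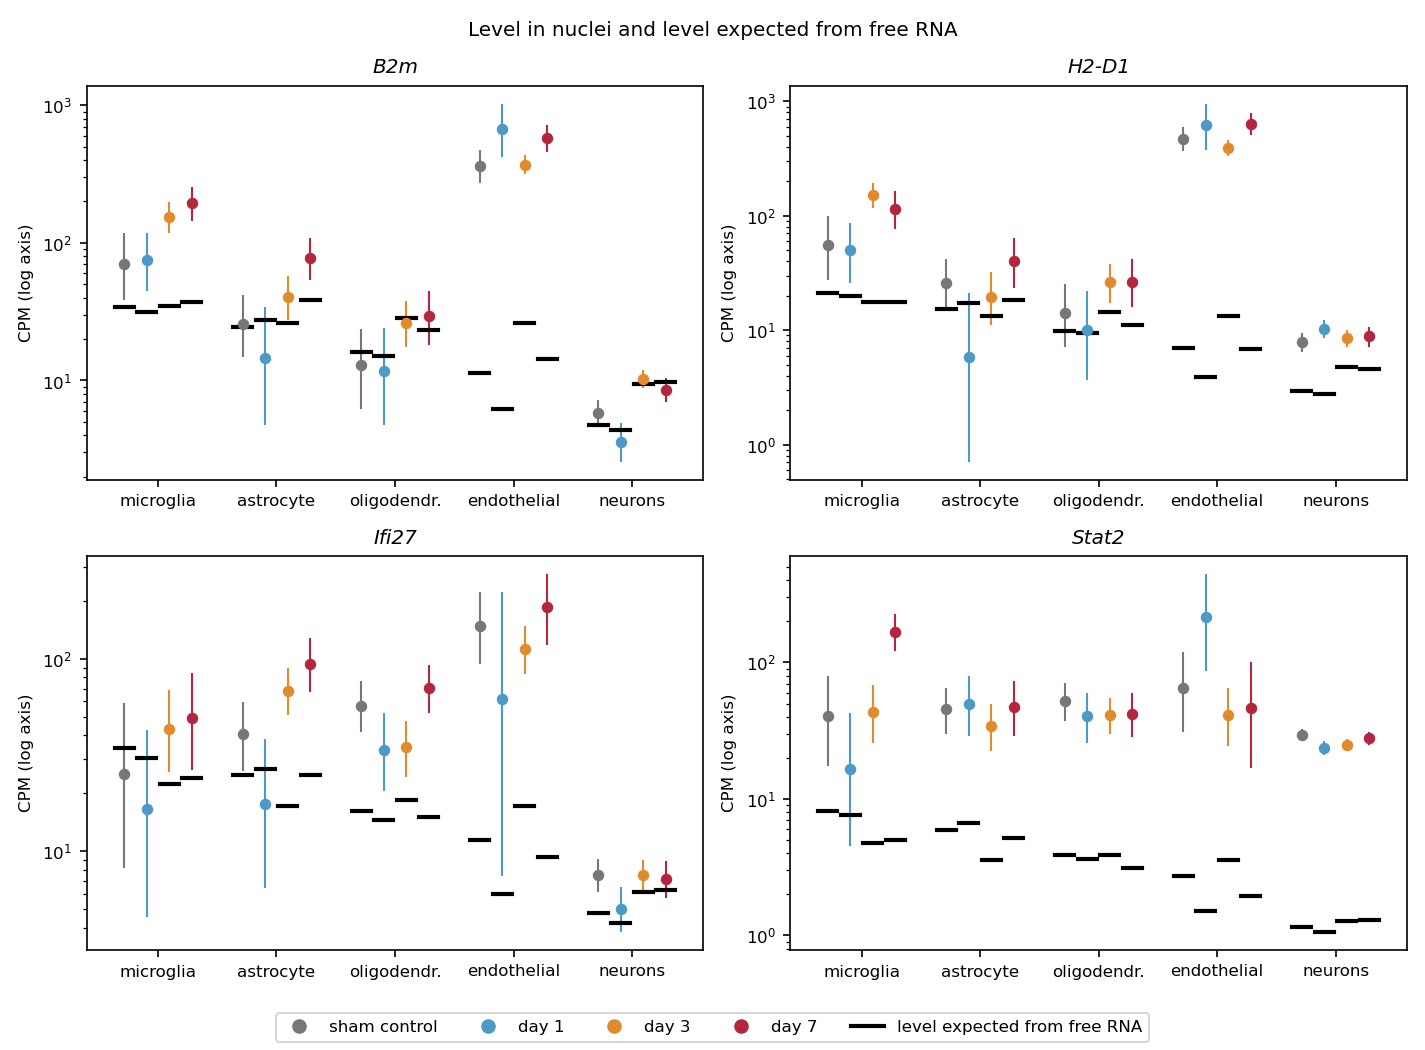
Level in nuclei (points, CPM on a log axis, with exact 95% counting intervals) and the level that free RNA alone would give (black bars) for B2m, H2-D1, Ifi27 and Stat2 in 5 classes and 4 libraries. B2m points of oligodendrocyte-like nuclei and neurons sit on or near the bars, and Stat2 points of neurons sit far above them.

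The share of nuclei with a member UMI was compared at 1000 UMIs per nucleus. In microglia-like nuclei it was 27.9% (18.8% to 38.6%), 29.5% (16.8% to 45.2%), 46.5% (39.2% to 53.9%) and 52.1% (41.6% to 62.5%). Unthinned it was 43.0%, 61.4%, 65.2% and 78.7%. These intervals run over nuclei of 1 library each and do not compare conditions. In neurons, where Stat2 led the count, it was 6.42%, 5.19%, 6.95% and 6.62% thinned and 40.2%, 47.6%, 40.1% and 45.5% unthinned, at medians of 8542 to 14254.5 UMIs. Endothelial cell-like nuclei had the highest shares, 70.0%, 67.1% and 90.5% in sham control, day 3 and day 7, and 3 of 6 nuclei at day 1. Oligodendrocyte-like nuclei had 14.6%, 8.70%, 12.7% and 18.8%, and astrocyte-like nuclei 15.5%, 7.41%, 16.4% and 17.4%. Each nucleus held more than 1000 UMIs, so thinning left out 0 nuclei.

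**Figure D4:**
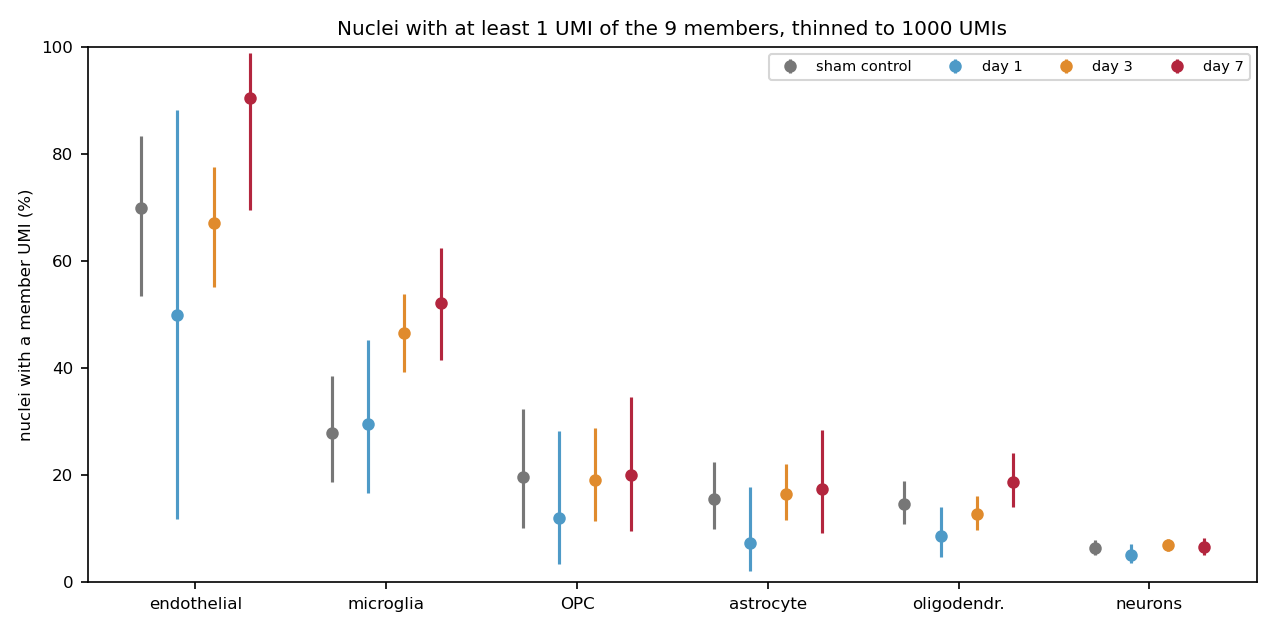
Percent of nuclei with at least 1 UMI of the 9 genes after thinning each nucleus to 1000 UMIs, by class and library, with exact 95% binomial intervals. Microglia-like nuclei stand at 27.9% in sham control and at 52.1% on day 7, while neurons stay between 5.19% and 6.95%.

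Other genes of the pathway were followed by role, 89 of them in the files. Interferon transcripts were near the limit of this depth, and the 7 ligand genes together had at most 4 UMIs in all nuclei of any library. Among 40 interferon-induced genes, the main targets, microglia-like nuclei had 1 higher and 5 lower of 7 counted at day 1. At day 3 7 of 22 were higher and 0 lower, and at day 7 14 of 21 higher and 0 lower. All genes of the class had the shares given above, 9.73% higher at day 7. At day 7 the median log2 ratio of the list was 1.29 beside 0.0075 for all genes, and without the nucleus holding most UMIs of the list 16 were higher. Genes with few sham control UMIs entered these counts and the median only where they were high on the later day. The shares of all genes were not matched for UMIs, and the list was chosen with earlier results of these data known. The counts and the median are therefore no support for a rise of the list. The list had 547 UMIs in 77 nuclei at day 7 against 194 in 67 in sham control.

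Of the interferon-induced genes of microglia-like nuclei, Mx1, a dynamin-like antiviral GTPase, had 25 UMIs at day 7 against 1 in sham control, a ratio of 18.8 (3.09 to 774), and its relative Mx2 3.77 (1.07 to 20.3). Eif2ak2, the kinase PKR that senses double-stranded RNA, stood at 5.49 (2.00 to 21.0) at day 3 and 4.52 (1.55 to 17.9) at day 7. The RNA sensors Ifih1 and Ddx58 had day 7 ratios of 4.52 (1.01 to 41.6) and 3.17 (1.16 to 10.7), and the ubiquitin ligase Rnf213 2.68 (1.61 to 4.64). Ifitm3, which restricts viral entry, was at 8.59 (1.36 to 358) at day 3, with 18 UMIs against 1 in sham control. At day 1 Sp100, a nuclear body protein, was lower at 0.124 (0.0235 to 0.417), as was the ADP-ribosyltransferase Parp14 at 0.165 (0.0493 to 0.439). The sums were 3 UMIs against 20 in sham control for Sp100 and 5 against 25 for Parp14. Nuclei of this class were deepest at day 1, and whether these 2 values depend on depth was not tested. Mx2, Ifih1, Ddx58 and Rnf213 were named after their values had been seen.

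Receptors and signalling genes of microglia-like nuclei showed 1 higher and 0 lower of 8 at day 1, 2 and 0 of 9 at day 3, and 2 and 1 of 10 at day 7. Beside these and the next counts stand the shares of all genes in the class higher and lower, 11.3% and 9.01% at day 1, 11.5% and 6.84% at day 3 and 9.73% and 7.41% at day 7. At day 7 Usp18, an inhibitor of interferon signalling, was at least 3.27-fold higher against a floor of 3 UMIs, Jak2 stood at 2.54 (1.12 to 6.48), and Ifngr1, a chain of the interferon gamma receptor, was lower at 0.428 (0.238 to 0.750). Usp18 and Jak2 in this class were named after their values had been seen. Peptide loading and proteasome genes showed 1 higher and 1 lower of 8 at day 1, 3 and 0 of 10 at day 3, and 0 and 0 of 10 at day 7. The other class I heavy chains showed 0 higher and 1 lower of 1 at day 1, 1 and 0 of 2 at day 3, and 2 and 0 of 3 at day 7. Class II genes, which present peptides taken up from outside, showed 4 higher and 0 lower of 4 at day 1, 2 and 0 of 3 at day 3, and 1 and 0 of 1 at day 7. At day 1 Cd74, the class II invariant chain, had 146 UMIs and H2-Aa 60, but each sum came from 1 nucleus. Without the nucleus with most class II UMIs in each library 0 class II genes had 10 UMIs at day 1, 1 at day 3, which was higher, and 0 at day 7, when that nucleus held 47.6% of the list's UMIs.

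Astrocyte-like nuclei had 2 higher and 2 lower of 10 at day 1, 1 and 2 of 13 at day 3, and 8 and 0 of 15 at day 7 of the interferon-induced genes, with a day 7 median log2 ratio of 1.12 beside -0.089 for all genes. Of all genes tested in the class, the shares higher and lower were 5.59% and 10.7% at day 1, 5.21% and 7.04% at day 3 and 5.64% and 9.45% at day 7. The nucleus with most UMIs of the list held 29.8% of them in sham control and 29.6% at day 1. Without the nucleus with most UMIs of the list in each of the 2 libraries compared, the counts were 0 higher and 0 lower of 6 at day 1, 2 higher and 0 lower of 9 at day 3 and 6 higher and 0 lower of 11 at day 7. Ifit1, which binds foreign RNA ends, stood at 14.5 (2.07 to 631) and Ifi35 at 13.1 (1.81 to 573) at day 7. These rest on 10 and 9 UMIs against 1 each in sham control, with 30.0% and 33.3% of the day 7 UMIs in 1 nucleus. At day 3 Ifitm3 was at 6.09 (2.14 to 23.8) and the chaperone gene Calr at 1.93 (1.23 to 3.09), Rnf213 was lower at 0.483 (0.282 to 0.811), and Rsad2 was lower against 12 UMIs of a single sham control nucleus. Pdia3, a member of the loading complex, was lower at day 1, at 0.362 (0.155 to 0.749). Oligodendrocyte-like nuclei had 3 higher and 0 lower of 5 at day 1, 3 and 0 of 6 at day 3, and 7 and 0 of 9 at day 7 of the induced genes, where all genes had shares higher and lower of 5.7% and 6.51% at day 1, 7.58% and 3.43% at day 3 and 4.36% and 6.69% at day 7. At day 1 1 nucleus held 44.7% of the list's UMIs, and without such nuclei the counts were 0 higher and 0 lower of 3 at day 1, 2 higher and 0 lower of 6 at day 3 and 5 higher and 0 lower of 8 at day 7. Their Mx2 stood at 3.12 (1.02 to 11.3) at day 1, with 66.7% of its 12 UMIs in 1 nucleus, and 3.03 (1.11 to 10.3) at day 3, Trim25 at 10.8 (1.54 to 469.6) at day 7 and Rnf213 at 2.49 (1.16 to 5.94) at day 3 and 4.69 (2.23 to 11) at day 7, and 1 nucleus held 48.7% of the latter UMIs. Oasl2 at day 1 had its 9 UMIs in 1 nucleus. Ifngr2 was lower at 0.310 (0.0975 to 0.857) and 0.309 (0.0741 to 0.984) at the later days, and Xaf1 at 0.520 (0.267 to 0.992) at day 3.

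The interferon-induced genes of endothelial cell-like nuclei had 2 higher and 5 lower of 17 at day 1, 1 and 6 of 29 at day 3, and 2 and 2 of 22 at day 7. All genes tested in the class had shares higher and lower of 13.4% and 26.3% at day 1, 13.6% and 7.73% at day 3 and 7.78% and 11.3% at day 7. At day 1 1 of the 6 nuclei held 59.5% of the list's UMIs, and without the nucleus with most of them in each library the counts were 1 higher and 10 lower of 17 at day 1, 1 higher and 6 lower of 28 at day 3 and 1 higher and 4 lower of 20 at day 7. Rtp4 stood at 0.205 (0.0881 to 0.453) and Xaf1, a promoter of apoptosis, at 0.337 (0.173 to 0.654) at day 3. At day 7 Xaf1 was at 0.284 (0.0836 to 0.773) and the guanylate-binding protein gene Gbp7 at 0.280 (0.0686 to 0.859), whereas Ifitm3 stood at 1.37 (1.00 to 1.86). At day 1 Xaf1 had 0 UMIs in 6 nuclei against 21 in sham control, a ratio of at most 0.679, and Ifitm2 was at 4.07 (2.04 to 8.03), 44.4% of it in 1 nucleus. The difference between endothelial cell-like and glial nuclei was not tested. Microglial markers in endothelial cell-like nuclei summed to 136, 369, 323 and 493 CPM, and their part was not tested.

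**Figure D5:**
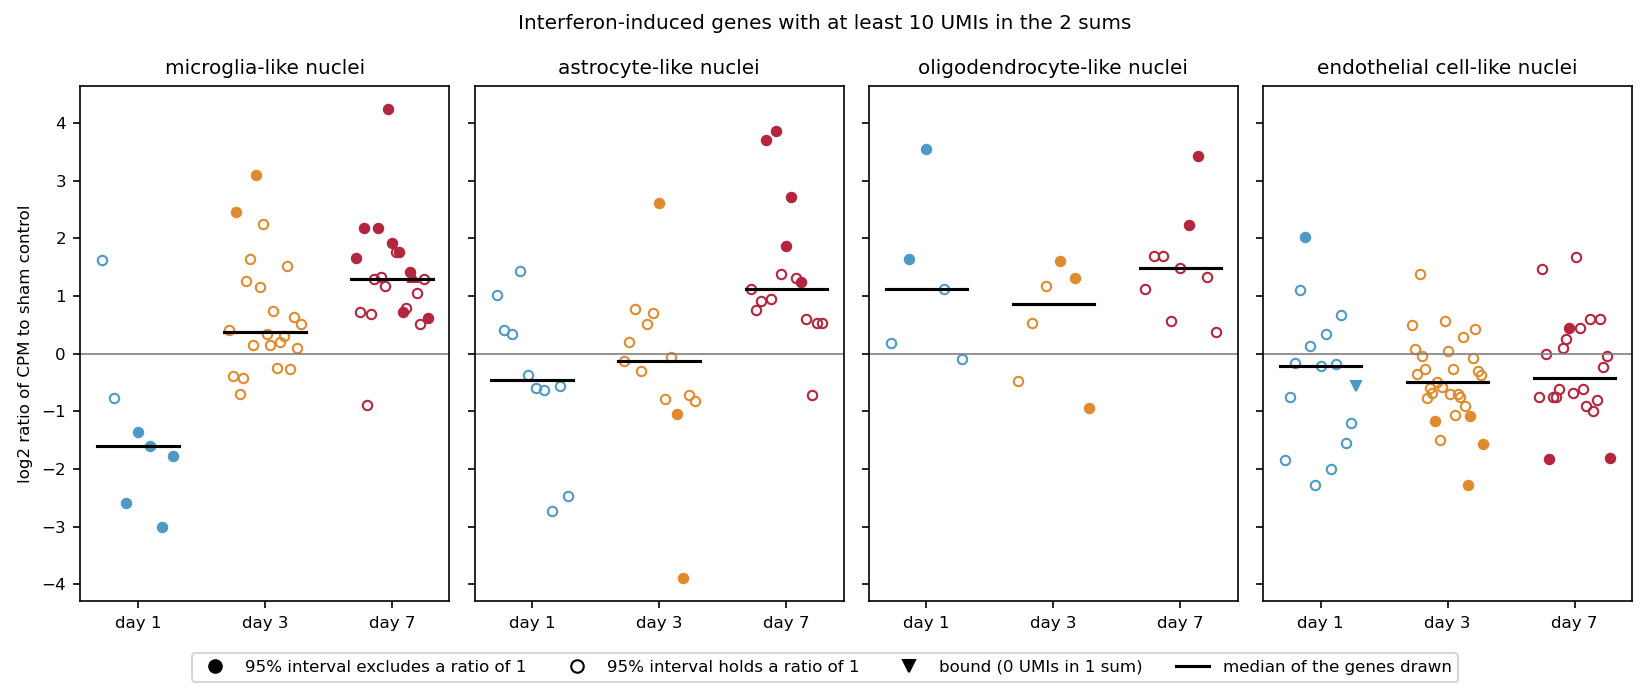
Log2 ratio to sham control of each interferon-induced gene with at least 10 UMIs in the 2 sums, in 4 classes and on 3 days. Filled points have a 95% counting interval that excludes a ratio of 1, triangles are bounds where a sum was 0, and black bars are medians. In microglia-like nuclei 5 of 7 genes lie past 2-fold lower at day 1 and 14 of 21 past 2-fold higher at day 7, and in endothelial cell-like nuclei the medians lie below 0. Genes low in sham control are drawn only where they were high on the later day, and no alternative for depth was run for these genes.

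Over all nuclei, where cell makeup and level per nucleus cannot be told apart, the interferon-induced genes had 1 higher and 11 lower of 35 at day 1, 4 and 1 of 38 at day 3, and 11 and 0 of 38 at day 7. Over all nuclei endothelial markers summed to 241, 122, 439 and 248 CPM and microglial markers to 245, 289, 394 and 378 CPM, and their part in these counts was not tested. Isg15, a ubiquitin-like modifier, stood at 0.318 (0.142 to 0.646) and Rsad2, also called viperin, at 0.329 (0.121 to 0.775) at day 1. Rsad2 was at 0.462 (0.232 to 0.889) at day 3, while the chemokine gene Cxcl10 was at 10.1 (1.52 to 431), with 13 UMIs against 1 in sham control. In sham control 1 nucleus held 44.4% of the 27 UMIs of Rsad2, and without the nucleus with most UMIs of the list in each library the counts were 1 higher and 10 lower of 35 at day 1, 4 higher and 0 lower of 38 at day 3 and 9 higher and 0 lower of 38 at day 7. The class II gene H2-Ab1 stood at 15.6 (2.49 to 646) at day 3 and 30.7 (5.03 to 1262) at day 7, with 64.0% of the latter in 1 nucleus, H2-Aa at 19.7 (5.02 to 169) with 84.4% in 1 nucleus, and both sums at day 1 came mostly from 1 nucleus. Jak2 and the chaperone Canx were slightly lower at day 7, at 0.852 (0.779 to 0.932) and 0.893 (0.821 to 0.970). Of the 9 members 2 were lower past 2-fold at day 1 (Ifi27l2a and Bst2) and 0 higher, beside 3.09% and 4.83% of all genes. At day 3 2 were higher (B2m and Ifi27l2a), beside 4.01% higher and 2.52% lower, and at day 7 3 (B2m, Ifi27l2a and Bst2), beside 3.7% and 2.82%. In free RNA the induced genes had 1 higher and 3 lower of 21 at day 1, 4 and 1 of 25 at day 3, and 18 and 0 of 30 at day 7, beside 4.84% and 3.48% at day 1, 3.4% and 3.85% at day 3 and 4.54% and 2.96% at day 7 of all genes higher and lower.

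Genes that varied like B2m over 32 sums, 8 classes in 4 libraries, were ranked by Pearson's r of log2(CPM + 1) among 14896 genes. H2-K1 ranked first with r of 0.893, followed by Cflar (0.888), an inhibitor of death receptor signalling, the interferon receptor chain Ifnar1 (0.883), the matrix protein gene Sparc (0.880) and Irf9 (0.879). H2-D1 came at rank 106 (0.804), Bst2 at rank 395, Ifi27 at rank 593 and Stat2 at rank 1485 (0.612). The 8 classes were the glutamatergic, GABAergic, striatal and other neurons and the astrocyte-, oligodendrocyte-, oligodendrocyte precursor- and microglia-like nuclei. Endothelial cell-like nuclei, the class with the highest B2m, were not among them because they numbered 6 at day 1. The sums of 1 library share its depth and free RNA, and the high level of a single class weighs in each value.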

How the data were processed

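The authors mapped 10x single-nucleus reads with STAR 2.7.3a (STARsolo) to GRCm38 with GENCODE vM8, counted exonic and intronic reads per gene, and collapsed UMIs within 1 mismatch. The deposited values are raw UMI counts per gene and barcode for all barcodes, with no removal of free RNA. Groups came from the labels, 1 library each, so no test was run and the 0 unused columns left nothing out.

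Nuclei were called here by a re-implementation of emptyDrops (ambient profile from barcodes of at most 1000 UMIs, 10000 draws, false discovery rate 0.001), and doublets were removed with Scrublet (scanpy 1.11.5) at 0.8% per 1000 nuclei. Libraries were integrated with Seurat 5.3.0 and sctransform 0.4.2 in R 4.3.3 on 2983 features without the 9 genes and the pathway genes (30 components, resolution 0.8). Clusters were named from 240 markers of 19 classes where the best class led by 0.5, and those with a smaller lead between neuronal classes were pooled as other neurons. Merging the libraries without integration gave 93.02% of nuclei the same name. UMIs were summed per class and library into CPM with exact Poisson intervals, and ratios had exact conditional binomial intervals (scipy 1.17.1), checked on simulated counts. Where 1 sum was 0 the ratio is a bound against 3 UMIs, given only where that bound lay past 1, and where both were at most 3 none was given. Intervals cover counting error only. Expected levels were the share of free RNA times its CPM. The 9 members and the gene lists were chosen with earlier results of these data known. The text names the 9 members in each class and, per day, the 2 pathway genes highest and the 2 lowest among those whose interval excluded 1 in microglia-, astrocyte-, oligodendrocyte- and endothelial cell-like nuclei and in all nuclei. Positions came from GENCODE vM21 for 46488 of 46983 identifiers. Alternatives were scaling, thinning, nucleus depth, cluster naming, free RNA subtraction and the mean over nuclei. They were run on the 9 members and not on the other pathway genes.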

Additional observations from a re-analysis of the deposited data

Results flagged for a closer look

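Some genes stood on opposite sides of sham control in different classes on the same day, each with a counting interval that excluded a ratio of 1. With 1 library per group these differences were not tested. At day 1 the log2 ratio of B2m was 0.90 in endothelial cell-like nuclei, -3.22 in GABAergic interneuron-like nuclei and -1.48 in other neurons. The endothelial value turned to -0.26 with each nucleus thinned to 1000 UMIs, the GABAergic value rests on 1 UMI, and neither neuronal level lay above what free RNA would give, so no difference in B2m is read from them. Stat2 on that day was at 1.73 in endothelial cell-like nuclei and -0.84 in other neurons. The endothelial value rests on few UMIs in 6 nuclei, and scaling by the median ratio of genes moved all genes there by 0.49 log2. No difference in Stat2 is read from it. At day 3 Ifi27 was at 0.76 in astrocyte-like and -0.72 in oligodendrocyte-like nuclei. The 9 genes summed were at 0.84 in microglia-like, 0.42 in astrocyte-like and -0.29 in endothelial cell-like nuclei at day 3. The endothelial value nearly vanished with each nucleus thinned to 1000 UMIs, as given above, so no opposite direction of the sum is read from it.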

How the results depend on the processing

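With 1 library per group there was no replicate error, and intervals cover counting error only. Of 156 alternative values of the 9-gene log2 ratio in nuclei, 139 moved by less than the counting interval, as did 836 of 883 for single genes in nuclei and 51 of 54 for single genes in free RNA. Alternatives that left no UMIs in a sum gave no value and are not in these totals. Single-gene ratios in nuclei numbered 111. All 111 stayed within the interval with doublets kept or with libraries merged, 78 with free RNA subtracted and 61 with thinning. Where a value moved, the cause was not tested. With each nucleus thinned to 1000 UMIs the 9-gene log2 ratio was 0.16 in microglia-like nuclei at day 1, -1.19 in astrocyte-like nuclei at day 1, and -0.46, -0.035 and 0.90 in endothelial cell-like nuclei at day 1, day 3 and day 7. Thinning also reversed B2m in endothelial cell-like nuclei at day 1 (-0.26), Bst2 there at day 3 (1.94) and B2m in neurons at day 7 (-0.067). In nuclei of more than 2000 UMIs microglia-like values were 0.026, 1.35 and 1.76. With free RNA subtracted they were -1.03 at day 1 and 1.55 at day 7 in astrocyte-like nuclei, -0.60 at day 3 in oligodendrocyte-like nuclei, and -0.33 at day 3 and -0.25 at day 7 in neurons, and B2m in neurons reversed at day 3 (-0.35). The mean of the nuclei's own CPM gave 0.60 in astrocyte-like nuclei at day 7 and reversed H2-K1 there (-0.067). Scaling by the median ratio of genes gave -0.14 in endothelial cell-like nuclei at day 1. Without Stat2, chosen after seeing the data, neurons had 0.36 at day 3 and 0.32 at day 7. Uncalled droplets of more than 100 and up to 1000 UMIs gave -0.29 for free RNA at day 1. The share of all genes past 2-fold in either direction at day 1, day 3 and day 7 among genes with at least 30 UMIs was 12%, 8.64% and 7.63% in microglia-like nuclei, 7.37%, 5.59% and 6.76% in astrocyte-like, 5.19%, 5.01% and 4.56% in oligodendrocyte-like, 25.1%, 11.8% and 7.99% in endothelial cell-like, 3.91%, 3.17% and 3.24% in all nuclei and 3.75%, 2.77% and 3.15% in free RNA. Among genes with at least 1 UMI it was 44.4%, 43.9% and 40.6% in microglia-like nuclei, 36.9%, 33.0% and 37.0% in astrocyte-like, 35.1%, 33.7% and 33.3% in oligodendrocyte-like, 66.9%, 45.0% and 45.2% in endothelial cell-like, 24.4%, 22.7% and 23.2% in all nuclei and 26.7%, 25.7% and 25.6% in free RNA. No paired analysis was possible because each group holds 1 library.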
